A study of Drosophila melanogaster with 30 samples.

Results

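Brains of undisturbed flies killed at ZT14 were compared with brains of undisturbed flies killed at ZT10, to describe what changed in waking flies across the end of the day. ZT counts hours from lights-on, and the lights went off at ZT12, so the earlier group was taken in the light and the later group in the dark. The comparison holds 6 of the 30 arrays of the series, chosen by their titles: 3 wake arrays (ZT14) and 3 start arrays (ZT10). All flies were wild type, virgin females of the Canton-S strain, aged 5 days and kept at 25 °C in vials of 50 under 12 h of light. They were killed in hot water, and each array measured RNA from a pool of 139 to 193 dissected whole brains on an Affymetrix Drosophila Genome 1.0 array. The same experiment holds 3 more ZT14 arrays from flies that were stimulated by hand between ZT10 and ZT14. A separate experiment supplies undisturbed flies at its own ZT14 start and after 2, 4 and 6 h of the following sleep period. ZT10 was the starting point of the stimulation experiment, which the study ran to control for handling during sleep deprivation.

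As background, the fly clock is a feedback loop in which the transcription factors Clk and cyc switch on per and tim, whose proteins return to the nucleus and shut the pair down. A second loop runs through vri and Pdp1, which repress and activate Clk. In fly heads the transcripts of per, tim and vri rise towards the early night, while Clk and the blue light receptor cry peak at the opposite phase. The hours between late afternoon and early night also bring the evening bout of activity and the loss of light to the photoreceptors.

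Values below are the authors' log2 expression values, on which a difference of 1 unit is a 2-fold change, and each value belongs to 1 probe set. Medians of the 9 arrays of the experiment lay between 4.88 and 4.93, and the correlation over probe sets was 0.992 to 0.996 inside a group and 0.99 to 0.996 from wake to ZT10 arrays. The array median was 4.919 in wake and 4.890 in ZT10 arrays, with no overlap (exact permutation test, two-sided p = 0.1, the smallest that 3 against 3 arrays can give). The interquartile range of array values averaged 2.447 in wake and 2.492 in ZT10 arrays, also with no overlap (exact permutation test, two-sided p = 0.1). What this wider spread at ZT10 contributed to the gene list counts was not tested on its own. The actin 3' minus 5' control difference averaged 2.405 in wake and 2.529 in ZT10 arrays (exact permutation test, p = 0.5). The Gapdh control difference averaged 2.516 in wake and 2.349 in ZT10 arrays (exact permutation test, p = 0.2). The eIF4A control difference averaged 2.049 and 2.004. All 9 arrays were scanned on 1 day, the ZT10 arrays after all ZT14 arrays, so scan order and hour cannot be told apart. Neuronal and glial transcripts were present: at ZT10 the neuronal gene nSyb stood at the 95.3rd percentile of probe sets, the cholinergic gene ChAT at the 95.1st and the glial gene Gs2 at the 99.3rd. Other neuronal genes stood at 51.8 (VGlut), 75 (elav) and 87.4 (brp), and other glial genes at 64.9 (moody), 74 (repo) and 95.4 (alrm). In wake arrays elav stood at 69.2 and moody at 70. Transcripts from outside the brain proper were abundant too, with the yolk protein gene Yp1 at the 99.8th percentile and the photoreceptor arrestin Arr2 at the 98.1st.

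Of 13966 probe sets tested, 9 were lower at ZT14 than at ZT10 and none was higher (limma, Benjamini-Hochberg adjusted p below 0.05), which is 0.0644% lower and 0% higher. At an unadjusted p below 0.05, 897 were lower (6.42%) and 694 higher (4.97%), together 1591 (11.4%). The wake and ZT10 arrays did not overlap in 2267 probe sets (16.2%), 1044 with wake lower (7.48%) and 1223 with wake higher (8.76%). With each array centred on its median, 14 were lower and none higher at the adjusted threshold, and at an unadjusted p below 0.05 the higher probe sets made up 20.9% of those past it, against 43.6% in the values as deposited. After renewed quantile normalisation, and likewise after cyclic loess, 8 were lower and 1 higher. The count was 3 without wake replicate 2, 3 without ZT10 replicate 3 and 4 without ZT10 replicate 1. The array values of each of the 9 genes that fell did not overlap between wake and ZT10.

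The largest fall was in Ugt35B1, which encodes a UDP-glycosyltransferase, an enzyme that attaches sugars to small lipophilic molecules. Its probe set read 8.42, 8.41 and 8.05 at ZT10 and 6.73, 6.78 and 6.70 in wake flies at ZT14. The fall was 1.55 log2 units, written as a difference of -1.55 (SE 0.108; 2.93-fold; adjusted p = 8.4e-06). A second probe set of Ugt35B1 was dimmer and differed by -0.20 (adjusted p = 0.387), so the size of the fall rests on 1 probe set. CG10513, a gene known by its number only, read 5.62, 5.08 and 5.59 at ZT10 and 3.57, 4.0 and 4.09 in wake flies. It differed by -1.55 (SE 0.145; 2.92-fold; adjusted p = 0.000211). The gene ebony (e), whose product joins beta-alanine to dopamine and histamine in glia, read 5.96, 5.96 and 5.97 at ZT10, the tightest of these groups, and 5.2, 5.36 and 5.34 in wake flies. Its difference was -0.66 (SE 0.0777; adjusted p = 0.00234). In a bulk sample, fewer cells of a type and less RNA per cell cannot be told apart.

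Stripe (sr), an EGR-type transcription factor whose transcript rises with neuronal activity, read 6.80, 6.81 and 7.16 at ZT10 and 5.93, 5.97 and 6.22 in wake flies. It fell by 0.88 (difference -0.88, SE 0.119; adjusted p = 0.0081). Without wake replicate 2 its adjusted p was 0.0893, and without ZT10 replicate 3 it was 0.0564. Pcyt2, an enzyme of phosphatidylethanolamine synthesis, read 7.88, 7.71 and 7.99 at ZT10 and 7.19, 7.21 and 7.30 in wake flies. Its difference was -0.63 (SE 0.0849; adjusted p = 0.0081), and its adjusted p was 0.0886 without wake replicate 2, 0.0752 without ZT10 replicate 1 and 0.0695 without ZT10 replicate 3. For both genes the lowest ZT10 array stood above the highest wake array.

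The remaining falls were smaller and lay close to the threshold. CAH7, a carbonic anhydrase, read 8.74, 8.77 and 8.66 at ZT10 and 8.20, 8.23 and 8.25 in wake flies (difference -0.50, SE 0.0776; adjusted p = 0.0318). Nplp3, a precursor of small neuropeptide-like peptides, read 8.90, 9.0 and 9.08 against 8.26, 8.48 and 8.49 (difference -0.58; adjusted p = 0.0472). The CAH7 and Nplp3 arrays at ZT10 were all brighter than those at ZT14, with gaps wider than either group's own range. Pdh, a retinol dehydrogenase of the retina that serves recycling of the visual chromophore, read 4.73, 4.63 and 4.62 against 4.08, 4.20 and 4.02 (difference -0.56; adjusted p = 0.0472). Miox, a myo-inositol oxygenase, read 5.84, 5.72 and 5.72 against 5.35, 5.21 and 4.99 (difference -0.58; adjusted p = 0.0472). CAH7 lost its call without any 1 of the 6 arrays, with adjusted p-values from 0.0563 without wake replicate 3 to 0.163 without wake replicate 2. The same omissions ended the calls of Pdh, from 0.0631 without ZT10 replicate 2 to 0.17 without ZT10 replicate 3, and of Nplp3, from 0.0563 without wake replicate 3 to 0.267 without ZT10 replicate 3. Miox lost its call without any array of the 6 other than wake replicate 1, with values up to 0.188 without wake replicate 2. Stimulated arrays, which share the spread, mattered too: Miox missed the threshold without stimulated replicate 1 (0.0757) or 2 (0.0586), Nplp3 without 1 (0.0757) or 3 (0.0527) and Pdh without 3 (0.0564). Pdh (adjusted p = 0.32), Nplp3 (0.32), Miox (0.516) and CAH7 (0.0669) also missed the threshold in a fit of all 30 arrays. After renewed quantile normalisation and after cyclic loess CAH7 (0.112 and 0.0752) and Nplp3 (0.115 and 0.0891) missed it.

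**Figure D1:**
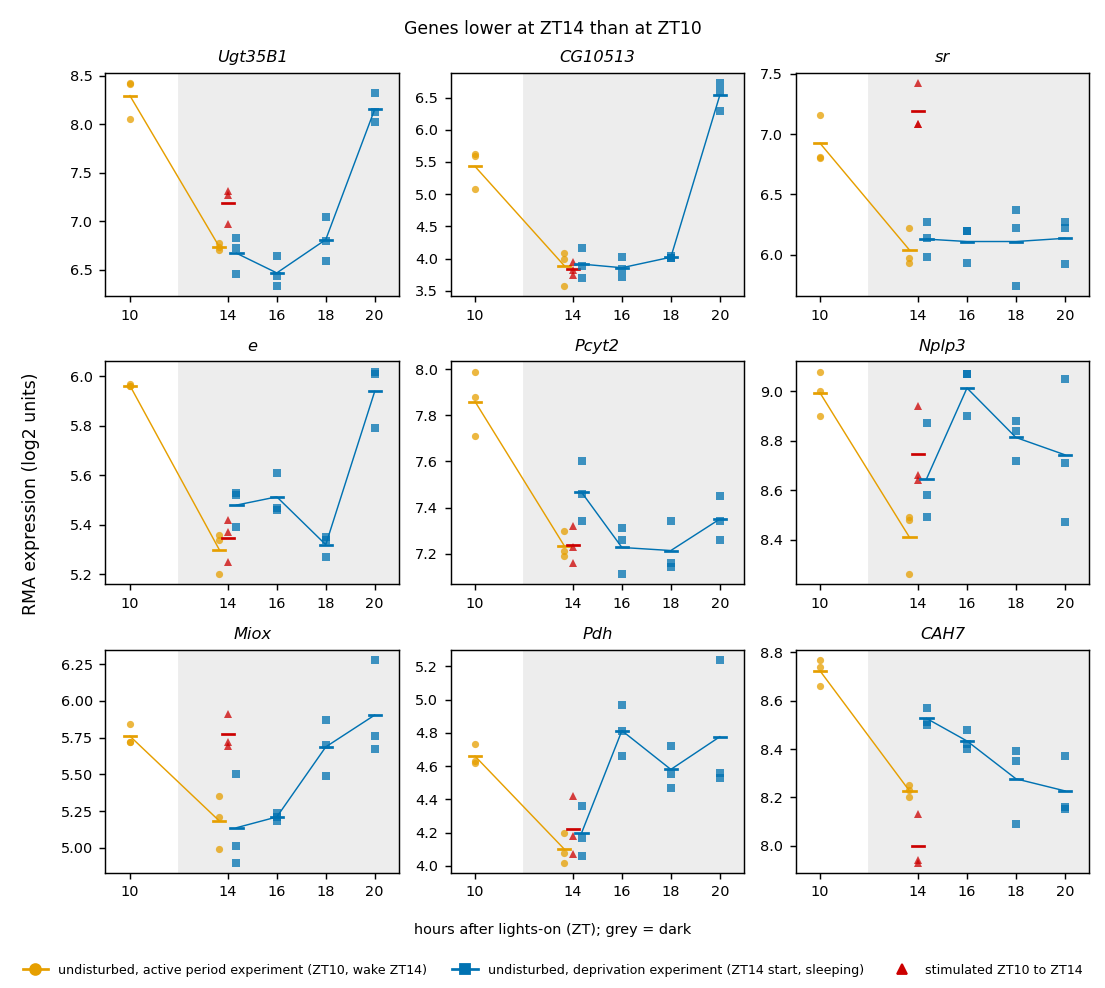
RMA expression (log2 units, vertical axes, each with its own range) of the 9 genes that were lower at ZT14, against hours after lights-on; points are single arrays, bars are group means, orange is the experiment compared here, blue the undisturbed flies of the other experiment, red triangles the stimulated flies, and symbols at ZT14 are set apart sideways for legibility. Ugt35B1 and CG10513 were low from ZT14 to ZT18 and high at ZT20, and the stimulated arrays of sr stood above all wake arrays.

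In the core clock loop 3 of 8 genes were higher (37.5%, against 4.97% of all probe sets) and 2 lower (25%, against 6.42%) at an unadjusted p below 0.05, and none passed the adjusted threshold. The gene tim came closest. It read 6.48, 6.32 and 6.37 at ZT10 and 6.93, 6.85 and 6.86 in wake flies, a difference of 0.49 (SE 0.0856; adjusted p = 0.0545). The groups did not overlap, and the adjusted p was 0.0413 after renewed quantile normalisation, 0.0371 after cyclic loess and 0.042 without stimulated replicate 3. A second probe set of tim differed by 0.30 (adjusted p = 0.373), and another, very dim one by -0.19 (adjusted p = 0.427). Its partner per read 5.29, 5.43 and 5.43 against 5.68, 5.70 and 5.74 (difference 0.32, SE 0.0817; adjusted p = 0.182). The repressor vri read 6.39, 6.32 and 6.39 against 6.62, 6.62 and 6.74 (difference 0.29; adjusted p = 0.162). All wake arrays of per, tim and vri lay above all ZT10 arrays, as they did in 8.76% of all probe sets.

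The clock genes Clk and cry were lower in every wake array than in any ZT10 array, as were 7.48% of all probe sets. The activator Clk was dim, at 3.09, 3.07 and 3.07 against 2.74, 2.77 and 2.82 (difference -0.30; adjusted p = 0.182). The light receptor cry read 7.14, 7.15 and 6.87 against 6.57, 6.71 and 6.52 (difference -0.46, SE 0.0977; adjusted p = 0.119), and its adjusted p was 0.0115 in a fit of all 30 arrays. The other members overlapped between the hours. The Clk partner cyc differed by -0.10 (adjusted p = 0.659), and the repressor cwo by -0.07 (0.751), while a second probe set of cwo differed by 0.24 (0.374). Pdp1, the activator of the second loop, differed by -0.08 (adjusted p = 0.757) and by 0.0079 after renewed quantile normalisation.

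**Figure D2:**
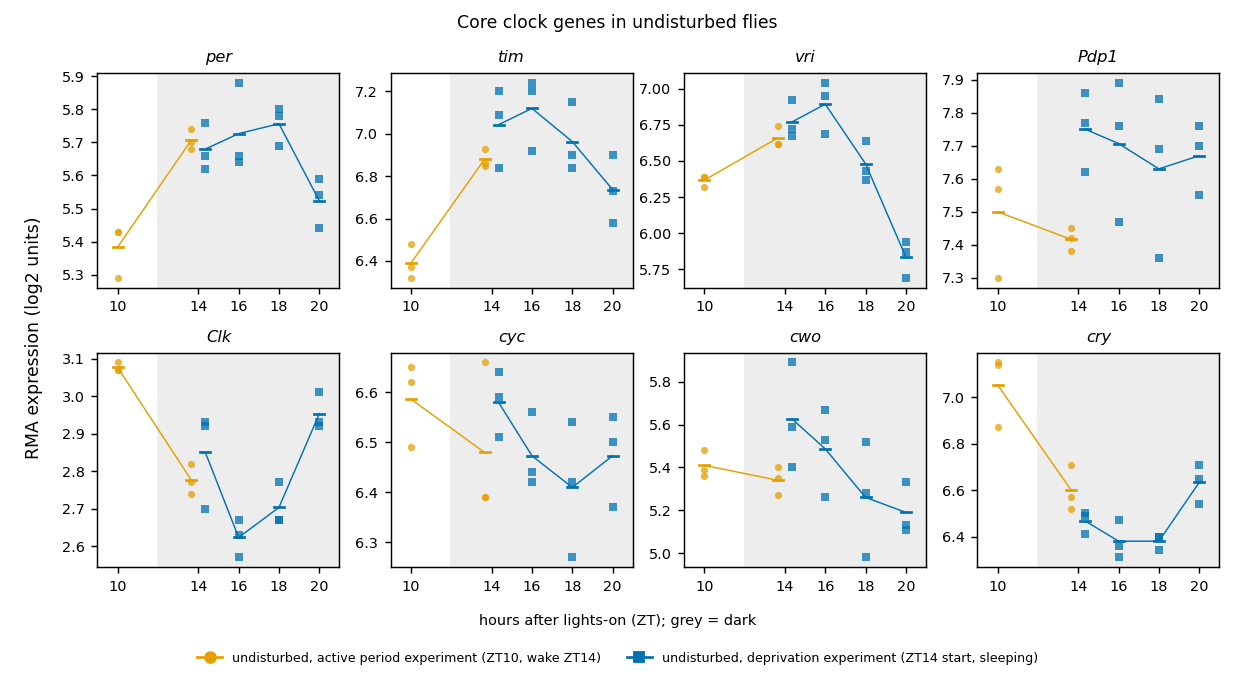
RMA expression (log2 units, each panel with its own range) of the 8 core clock genes in undisturbed flies against hours after lights-on; points are single arrays, bars are group means, orange is the experiment compared here and blue the other one. From ZT10 to ZT14 per, tim and vri were higher and Clk and cry lower in every array, and vri was lowest at ZT20.

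The clock's kinases, phosphatases and degradation factors held 2 of 9 genes lower at an unadjusted p below 0.05 (22.2%, against 6.42% of all probe sets). That number was 1 after renewed quantile normalisation and after cyclic loess. Usp8, a deubiquitinase, differed by -0.25 (adjusted p = 0.348). From here on, genes named outside the naming rule were picked after their values were seen. Among 13 genes of clock neuron signalling, 3 were lower (23.1%) and 1 higher (7.69%, against 4.97% of all probe sets) at that level. After renewed quantile normalisation 2 were lower and 2 higher. The neuropeptide gene NPF differed by -0.30 (adjusted p = 0.226), while Pdf, the main peptide of the clock neurons, differed by 0.10 (unadjusted p = 0.24). Of 21 other genes reported to cycle in fly heads, 4 passed the adjusted threshold, all lower: Ugt35B1, CG10513, e and Pdh. That list had 7 lower and 1 higher at an unadjusted p below 0.05 (33.3% and 4.76%), with a median difference of -0.094 against 0.0165 over all probe sets. It was drawn up from knowledge of head rhythms and holds no direction for these hours. Like the other lists it was chosen with earlier results of these data known, so its counts are a description. Pdh counts again in the retinal list, and e in the monoamine and glial lists.

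In the retina, 7 of 19 phototransduction and retinal genes were lower at an unadjusted p below 0.05 (36.8%, against 6.42% of all probe sets) and none was higher, with Pdh alone past the adjusted threshold. Arr1, an arrestin that quenches activated rhodopsin, read 8.31, 8.48 and 8.52 at ZT10 and 7.73, 7.61 and 7.27 in wake flies (difference -0.90, SE 0.153; adjusted p = 0.0501). The second arrestin, Arr2, read 8.94, 9.28 and 9.19 against 8.53, 8.52 and 8.15 (difference -0.74; adjusted p = 0.119). The light-activated channel trp read 5.03, 5.31 and 4.92 against 4.73, 4.71 and 4.18 (difference -0.55; adjusted p = 0.247). Groups did not overlap for these 3 genes, which were picked after their values were seen. Wake arrays lay below all ZT10 arrays in 7.48% of all probe sets. The amount of retinal signal differed widely between pools of a single hour: in the ZT14 start group of the other experiment Arr1 read 8.70, 8.0 and 7.50, a range that covers the 3 ZT10 arrays and 2 of the 3 wake arrays. The mean over the 19 genes ran from 5.38 to 5.55 in wake arrays and from 5.65 to 5.79 in ZT10 arrays. How much retina stayed on the dissected brains was not tested.

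Of 15 genes known to follow neuronal activity, 6 were lower at an unadjusted p below 0.05 (40%, against 6.42% of all probe sets) and none higher, with sr alone past the adjusted threshold. The transcription factor cabut (cbt) read 7.53, 7.77 and 7.68 at ZT10 and 7.29, 7.24 and 7.08 in wake flies (difference -0.45; adjusted p = 0.103). CG17778 differed by -0.60 (adjusted p = 0.103) and Jra, the fly Jun, by -0.30 (0.263), both without overlap, as in 7.48% of all probe sets with wake lower. CG14186 (-0.66, adjusted p = 0.346) and the phosphatase gene puc (-0.35, 0.319) overlapped between the hours. The other 9 differed by -0.12 to 0.20, none at an unadjusted p below 0.05, with Hr38 at 0.01, kay (the fly Fos) at -0.06 and CG13868 at 0.20.

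**Figure D3:**
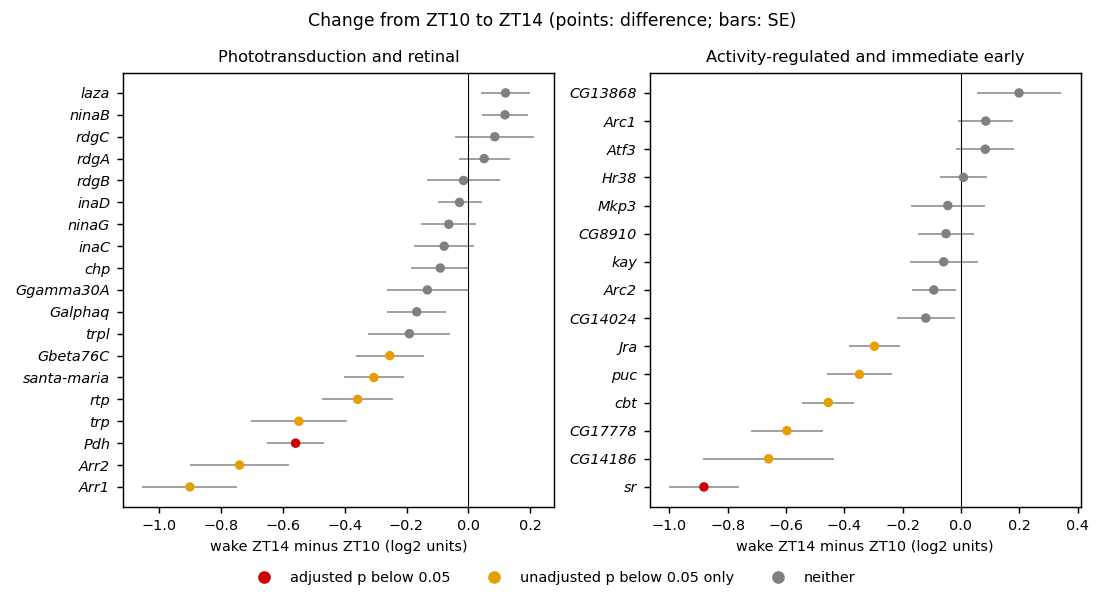
Difference from ZT10 to wake ZT14 (log2 units, horizontal axis; point is the difference, bar its SE) for the 19 retinal and the 15 activity-regulated genes, sorted by difference; red passed the adjusted threshold, orange only an unadjusted p below 0.05. Every coloured point lies below 0, led by Arr1 at -0.90 and sr at -0.88.

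Flies of the same hour that had been stimulated by hand differed from the wake flies in part of these genes. These 3 arrays are compared with the same ZT10 and wake arrays as above, so the values are set side by side only. The stimulated arrays of sr read 7.08, 7.08 and 7.42, which is 0.27 above ZT10 (adjusted p = 0.465) and 1.15 above wake (adjusted p = 0.00142). Miox read 5.69, 5.72 and 5.91, a difference of 0.01 from ZT10 (adjusted p = 0.98) and of 0.59 from wake (adjusted p = 0.039). Both genes stood in stimulated flies near their ZT10 level. Ugt35B1 read 7.27, 6.97 and 7.31, lower than at ZT10 by 1.11 (difference -1.11; adjusted p = 0.000355), and 0.44 above wake (adjusted p = 0.28). CG10513, e, Pcyt2 and CAH7 differed from ZT10 by -1.59, -0.62, -0.62 and -0.72 in stimulated flies, each past the adjusted threshold, and tim by 0.48 (adjusted p = 0.034). Over all probe sets, stimulated flies differed from ZT10 in 35 (0.251%) and from wake flies in 12 (0.0859%).

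No probe set higher at ZT14 passed the adjusted threshold, and by the smallest p the leading genes after tim were Lsp2, Rilpl, CG5687 and CG10621. Lsp2, a storage protein of the haemolymph, read 5.49, 5.50 and 5.43 at ZT10 and 6.02, 5.83 and 5.79 in wake flies (difference 0.41, SE 0.078; adjusted p = 0.092). Rilpl differed by 0.45, CG5687 by 0.53 and CG10621 by 0.53, with an adjusted p of 0.103 for each. For all 4 genes the wake arrays lay above all ZT10 arrays, as they did in 8.76% of all probe sets. A choice by smallest p favours genes with such a separation. CG5687 passed in a fit of all 30 arrays (adjusted p = 0.0353). Some larger differences had wider errors. The P450 gene Cyp4g1 differed by 1.01 (SE 0.555; adjusted p = 0.489), with wake arrays at 4.21, 6.93 and 6.78 and ZT10 arrays at 5.74, 4.69 and 4.47. The gene fit, which encodes a peptide of the head fat body, read 6.27, 6.01 and 5.72 at ZT10 and 7.20, 7.25 and 6.53 in wake flies (difference 0.99, SE 0.215; adjusted p = 0.119). The stimulated arrays of fit were higher still, at 7.52, 7.38 and 8.25.

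Among 10 fat body and haemolymph markers, 5 were higher (50%, against 4.97% of all probe sets) and 2 lower (20%, against 6.42%) at an unadjusted p below 0.05, with a median difference of 0.22. The 3 yolk protein genes Yp1, Yp2 and Yp3 differed by 0.71, 0.68 and 0.81, each with overlapping groups (adjusted p = 0.348, 0.374 and 0.326). Yp1 read 11.71, 11.74 and 10.79 at ZT10 and 12.61, 12.22 and 11.53 in wake flies, with wake replicate 3 and ZT10 replicate 3 the low arrays of each group. The mean over the list ran from 7.56 to 8.02 in wake and from 7.43 to 7.69 in ZT10 arrays. The 2 lower members were Miox and Acp1, the latter at -0.47 (adjusted p = 0.119). Acp1 is by its name an adult cuticle protein gene, so its place in this list, its counts and its means is doubtful. Whether the amount of fat tissue on the brains differed was not tested.

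Lipid genes showed 5 of 26 members lower (19.2%, against 6.42% of all probe sets) and 2 higher (7.69%, against 4.97%) at an unadjusted p below 0.05, and none higher with median centring. The perilipin gene Lsd-1, whose product coats lipid droplets, read 8.88, 8.84 and 8.86 at ZT10 and 8.33, 8.47 and 8.48 in wake flies (difference -0.43, SE 0.0779; adjusted p = 0.0674, and 0.0422 with median centring). The fatty acid binding protein gene fabp differed by -0.39 (adjusted p = 0.162) and the acyl-CoA synthetase gene bgm by -0.49 (0.217), while the lipoprotein gene apolpp differed by 0.28 with overlap. In sugar and glycogen metabolism 6 of 29 genes were lower (20.7%) and 1 higher at that level, against 2 and 2 after renewed quantile normalisation and 3 and 1 after cyclic loess, with a median of -0.032 that turned to 0.029 after renewed quantile normalisation and to 0.013 after cyclic loess. Hexokinase A (Hex-A) read 6.88, 6.57 and 6.85 against 6.34, 6.22 and 6.26 (difference -0.50; adjusted p = 0.0699). Its adjusted p was 0.00994 without ZT10 replicate 2, the lowest of the ZT10 arrays, and 0.0467 with median centring. The trehalase gene Treh (-0.26), the glycogen branching enzyme AGBE (-0.23) and Gapdh1 of glycolysis (-0.18) were lower as well, none past the adjusted threshold. The glucosidase gene tobi, a target of insulin and adipokinetic hormone signalling, was higher in every wake array, at 4.71, 4.48 and 4.20 against 3.97, 4.08 and 3.60 (difference 0.58; adjusted p = 0.145).

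**Figure D4:**
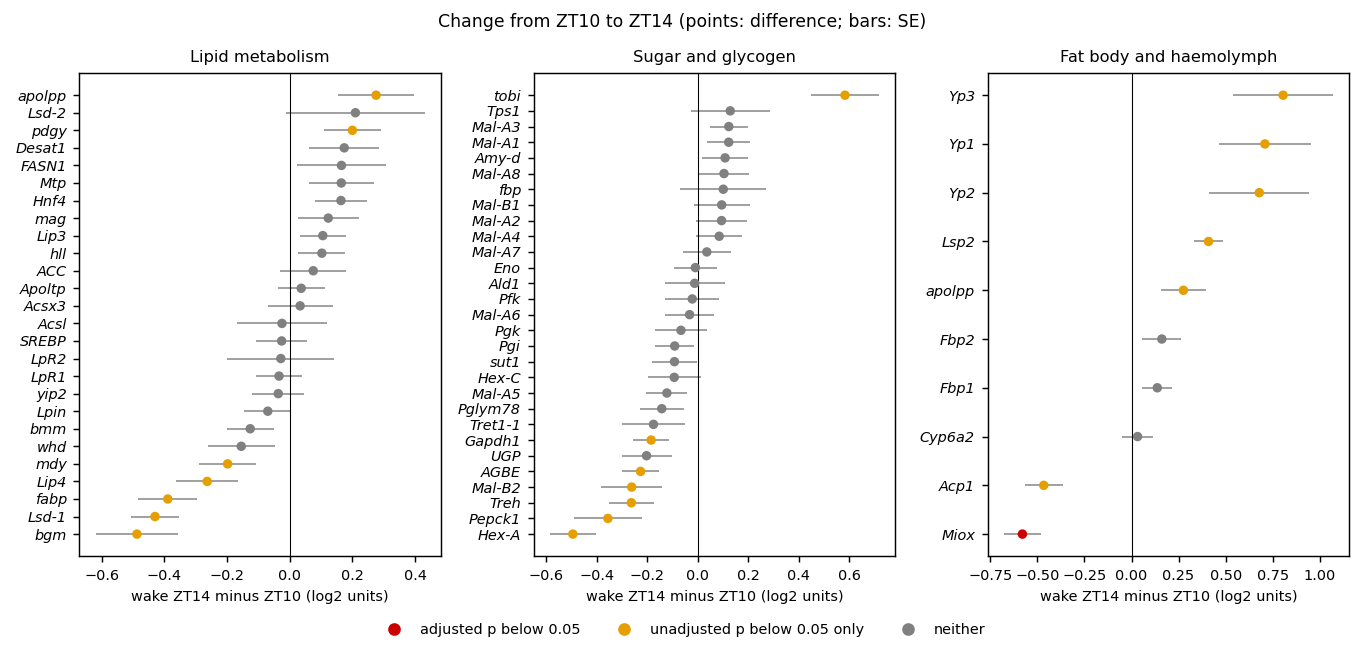
Difference from ZT10 to wake ZT14 (log2 units, horizontal axes with ranges of their own; point is the difference, bar its SE) for lipid, sugar and fat body genes, sorted by difference; red passed the adjusted threshold, orange only an unadjusted p below 0.05. Yolk protein genes Yp1, Yp2 and Yp3 stand at the top of the fat body list with wide bars, and Miox at the bottom with a narrow one.

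In insulin and nutrient signalling 3 of 17 genes were lower (17.6%, against 6.42% of all probe sets) and 1 higher (5.88%, against 4.97%) at an unadjusted p below 0.05. The insulin-like peptide gene Ilp2, made by median neurosecretory cells, differed by 0.26 without overlap (adjusted p = 0.373), and the kinase gene S6k by -0.28 with overlap (adjusted p = 0.356). Neuropeptide genes held 5 of 23 lower (21.7%) and none higher at that level, and 2 to 8 lower under the other scalings, among them ITP (-0.25), AstC (-0.20) and Mip (-0.21) beside Nplp3, the single one past the adjusted threshold. Among 11 genes of monoamine handling, e alone passed, and the dopamine transporter gene DAT read 6.18, 6.20 and 6.06 at ZT10 against 5.71, 5.77 and 5.90 (difference -0.35; adjusted p = 0.122). The dopamine receptor gene Dop1R1 differed by -0.44, also without overlap (adjusted p = 0.236). Tyrosine hydroxylase (ple) and the serotonin transporter gene SerT differed by 0.04 and 0.10. The potassium leak channel gene Ork1 was the lead among 29 channel and pump genes, at 0.51 without overlap (adjusted p = 0.106). In that list 3 genes were lower (10.3%) and 2 higher (6.9%) at an unadjusted p below 0.05.

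Genes of protein synthesis and turnover differed by small amounts, mostly downward, and none passed the adjusted threshold. Their counts at an unadjusted p below 0.05 depended on the scaling, so each is given under the others too. Of 41 translation factors 15 were lower (36.6%, against 6.42% of all probe sets) and none higher, and the number lower was 15 with median centring, 7 (17.1%) after cyclic loess and 5 (12.2%) after renewed quantile normalisation, the last 2 with 1 higher. Subunits of eIF3, the complex that brings the small ribosomal subunit to the message, made up 12 of those 15, from -0.29 to -0.17, of 16 eIF3 genes in the list. The number of eIF3 genes lower was 12 with median centring, 5 after cyclic loess and 3 after renewed quantile normalisation, and 13 of the 16 differences were negative under each scaling. Over all probe sets 6275 of 13966 differences were negative in the values as deposited. The 4 eIF3 genes that were not lower include the copies eIF3g2, eIF3d2 and eIF3f2, at 0.17, 0.09 and 0.06. The subunit eIF3i read 8.77, 8.69 and 8.94 at ZT10 and 8.45, 8.53 and 8.59 in wake flies (difference -0.27; adjusted p = 0.274), and eIF1 differed by -0.43. The mean over the 41 genes lay between 6.63 and 6.71 in wake arrays and between 6.75 and 6.79 in ZT10 arrays.

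Proteasome genes had 14 of 39 lower (35.9%) and none higher, with Prosalpha5 smallest by p, at -0.23 (adjusted p = 0.313). The number lower was 15 with median centring, 8 (20.5%) after cyclic loess and 5 (12.8%) after renewed quantile normalisation. Mitochondrial ribosomal protein genes had 62 of 64 differences negative, against 6275 of 13966 over all probe sets. At an unadjusted p below 0.05, 13 of the 64 were lower (20.3%) and none higher, with mRpS22 at -0.33 (adjusted p = 0.192). That count was 19 (29.7%) with median centring, 7 (10.9%) after cyclic loess and 6 (9.38%) after renewed quantile normalisation, where all probe sets gave 9.4%, 6.28% and 5.67%. Ribosome biogenesis had 6 of 21 lower (28.6%, against 6.42% of all probe sets), with the nucleolar gene mod at -0.33 (adjusted p = 0.162). Aminoacyl-tRNA synthetases had 4 of 16 lower (25%), with AsnRS at -0.35 (adjusted p = 0.182). List medians lay between -0.122 and -0.076, against 0.0165 over all probe sets, and were negative under each of the 3 other scalings. Oxidative phosphorylation showed 4 of 69 lower (5.8%), and from 1 after cyclic loess to 10 (14.5%) with median centring, with ND-ASHI at -0.28 (adjusted p = 0.314). Cytosolic ribosomal protein genes had 3 of 31 lower (9.68%) and 1 higher (3.23%), and none lower after renewed quantile normalisation. Their median of -0.073 turned to 0.029 after cyclic loess, and RpS29 stood at -0.22 (adjusted p = 0.37).

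**Figure D5:**
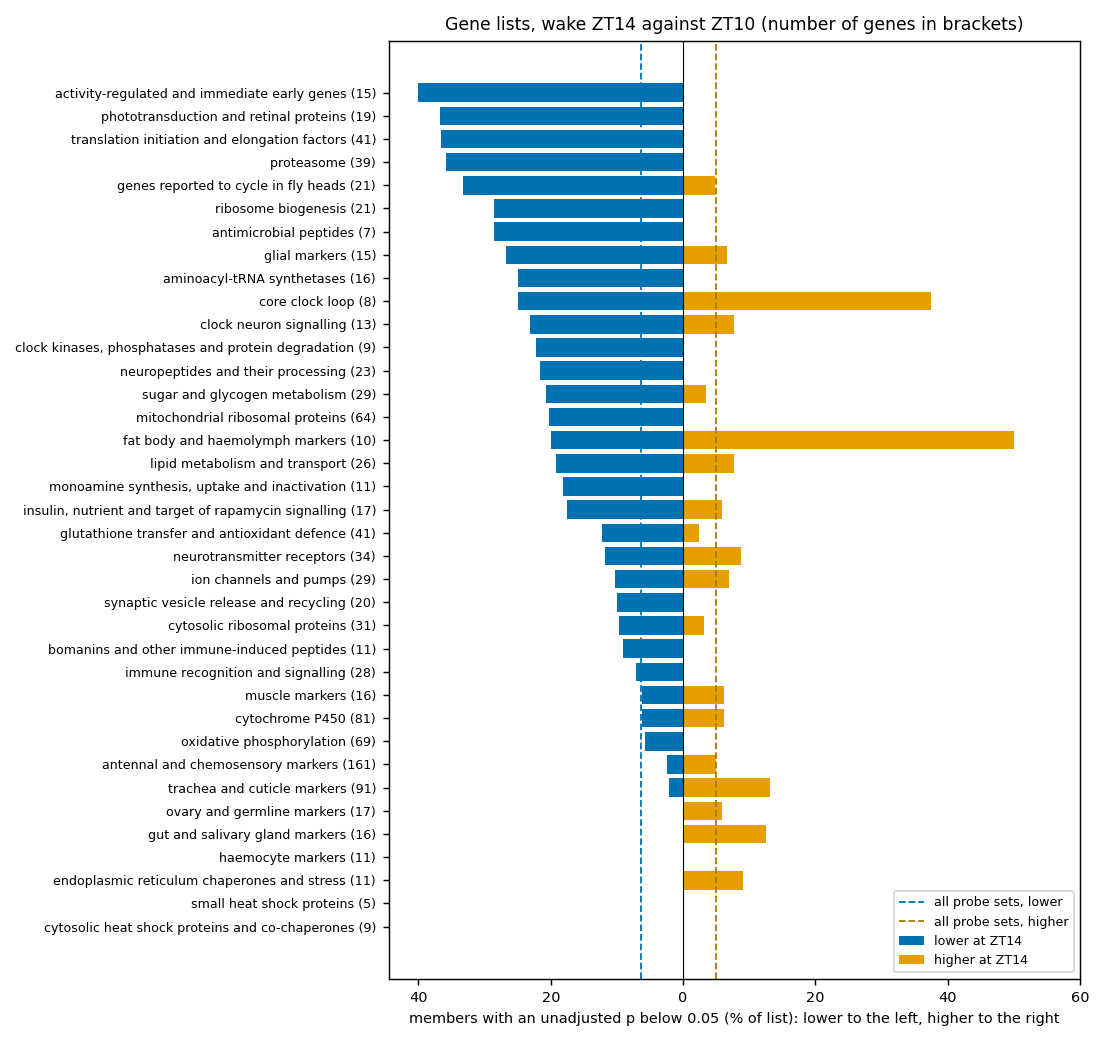
Share of each gene list with an unadjusted p below 0.05 (percent of list, horizontal axis; lower at ZT14 to the left in blue, higher to the right in orange, list size in brackets), with dashed lines at the shares over all probe sets, 6.42% lower and 4.97% higher. Activity-regulated, retinal, translation factor and proteasome lists extend farthest left, and fat body and core clock lists farthest right.

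No heat shock or immune gene of the lists passed the adjusted threshold. At an unadjusted p below 0.05, 6.42% of all probe sets were lower and 4.97% higher. None of 9 cytosolic heat shock genes and none of 5 small heat shock genes reached an unadjusted p of 0.05 (limma, no adjusted call either), with CG1416 at -0.22 and l(2)efl at 0.14. After renewed quantile normalisation 1 of each list was higher. Hsp70Aa, Hsp70Ab, Hsp70Ba, Hsp70Bb, Hsp70Bc, Hsp83, Hsp22, Hsp23, Hsp67Ba, Hsp67Bb and Hsp67Bc had no probe set with a single symbol. They were not analysed, so these counts do not cover them. Endoplasmic reticulum chaperones had 1 of 11 higher (9.09%), Gp93, at 0.21 (adjusted p = 0.438). All 7 antimicrobial peptide genes analysed had negative differences, 2 of them at an unadjusted p below 0.05 (28.6%, against 6.42% of all probe sets). Over all probe sets 6275 of 13966 differences were negative. The genes DptA, AttA, AttB, AttC, CecA1, CecA2, CecC and Dro had no probe set with a single symbol and were not analysed. Drosomycin-like 5 (Drsl5) read 7.16, 6.95 and 7.64 at ZT10 and 6.47, 6.49 and 6.60 in wake flies (difference -0.73; adjusted p = 0.122), while Mtk (-0.72) and DptB (-0.83) overlapped, and ZT10 replicate 3 was the highest array for all 3. Among 11 bomanins and related peptides 1 was lower (9.09%), BomBc3, at -0.52 (adjusted p = 0.309), again with ZT10 replicate 3 highest. Immune recognition and signalling had 2 of 28 lower (7.14%, near the share over all probe sets) and none higher, with cact at -0.18 (adjusted p = 0.387). The P450 list had 5 of 81 genes lower and 5 higher (6.17% each, near the shares over all probe sets), and 7 lower and 1 higher with median centring. Cyp4e3 differed by -0.99 (SE 0.199; adjusted p = 0.103, and 0.0217 without stimulated replicate 1). Glutathione and antioxidant genes had 5 of 41 lower (12.2%) and 1 higher (2.44%), with GstE2 at -0.36 (adjusted p = 0.159).

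Among the synapse, receptor and cell marker lists given next, e was the single gene past the adjusted threshold. Miox, of the fat body list above, passed it too. At an unadjusted p below 0.05, 6.42% of all probe sets were lower and 4.97% higher. Of 20 synaptic vesicle genes 2 were lower (10%), with shi, the fly dynamin, at -0.19 (adjusted p = 0.393), and none after renewed quantile normalisation. Of 34 transmitter receptor genes 4 were lower (11.8%) and 3 higher (8.82%, against 4.97% of all probe sets), and the number lower ran from 1 to 7 under the other scalings. Glial markers had 4 of 15 lower (26.7%) and 1 higher, and 2 lower and 2 higher after renewed quantile normalisation. Muscle had 1 lower and 1 higher of 16 (6.25% each), with Prm at 0.20 (adjusted p = 0.37). Ovary and germline had 1 higher of 17 (5.88%), with Cp19 at 0.23 (adjusted p = 0.326). The muscle and ovary shares lay near those over all probe sets. Gut and salivary gland had 2 higher of 16 (12.5%), with Jon65Aiii at 0.20 (adjusted p = 0.373). Of these 16 differences 15 were positive, against 7691 of 13966 over all probe sets. None of 11 haemocyte markers reached an unadjusted p of 0.05, with PPO2 at 0.18 (adjusted p = 0.459), and 2 were higher after renewed quantile normalisation. Antennal and chemosensory genes had 8 of 161 higher (4.97%, as over all probe sets) and 4 lower (2.48%), and 4 and 4 after renewed quantile normalisation. Obp99b read 5.51, 5.64 and 5.41 at ZT10 and 6.29, 6.35 and 5.61 in wake flies (difference 0.56; adjusted p = 0.253). Its adjusted p was 0.0216 without wake replicate 3, the lowest of the wake arrays. Obp99b passed the threshold in no other alternative. Trachea and cuticle genes had 77 of 91 differences positive, against 7691 of 13966 over all probe sets. At an unadjusted p below 0.05, 12 of the 91 were higher (13.2%, against 4.97% of all probe sets) and 2 lower. With median centring 5 were higher (5.49%, against 2.48% of all probe sets), after cyclic loess 9 (9.89%, against 3.95%) and after renewed quantile normalisation 15 (16.5%, against 4.47%). Each of these scalings had 3 lower. Cpr66Cb read 4.76, 4.84 and 4.89 at ZT10 and 5.12, 5.18 and 5.10 in wake flies (difference 0.30; adjusted p = 0.175). The mean over the cuticle list ran from 4.899 to 4.969 in wake and from 4.808 to 4.898 in ZT10 arrays, near the array medians.

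The change from ZT10 to ZT14 was then set against the change over the first 4 h of sleep, ZT14 to ZT18, in the other experiment, which uses different arrays. No probe set passed the adjusted threshold in the sleep interval (0%; limma), and 2092 (15%) had an unadjusted p below 0.05. The changes of the 2 intervals correlated at 0.475 across probe sets, given as a description, since all arrays share 1 platform. Of the probe sets with an unadjusted p below 0.05, 332 were shared, which is 20.9% of the first interval's and 15.9% of the second's, and 18 of them went in opposite directions. The interquartile range of array values averaged 2.492 at ZT10 and 2.447 in wake arrays. In the sleep interval it was 2.546, 2.596 and 2.444 at the ZT14 start and 2.474, 2.405 and 2.529 after 4 h. What array spread contributed to the correlation and to the shared directions was not tested. The difference between the intervals passed the adjusted threshold in 2 probe sets (0.0143%), against 534 (3.82%) at an unadjusted p below 0.05. They were Ugt35B1, which differed by 0.14 from ZT14 to ZT18 (difference of changes -1.69, adjusted p = 0.000141), and CG10513, which differed by 0.10 (-1.65, adjusted p = 0.000141). Both genes were high again at ZT20, 6 h into the sleep period, with Ugt35B1 at 8.32, 8.12 and 8.02 and CG10513 at 6.60, 6.72 and 6.29. The first array of the ZT20 group has conflicting labels, sleeping in its title and condition and deprived in its source name, and for both genes the other 2 arrays also lay above every undisturbed array from ZT14 to ZT18. For sr, e and tim the difference of changes was -0.86, -0.50 and 0.57, none past the threshold.

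Undisturbed flies of the same hour were available in both experiments, and 4 of 13966 probe sets (0.0286%) differed between them at the adjusted threshold, with 2553 (18.3%) at an unadjusted p below 0.05. Experiment and any separate normalisation cannot be told apart in this comparison. All 4 were lower in the wake arrays, with px at -1.02, CG9281 at -0.90 and Clamp at -0.64 the 3 with a single gene symbol. None of the 9 genes that fell from ZT10 to ZT14 was among them. Ugt35B1 differed by 0.07, CG10513 by -0.03, sr by -0.09 and e by -0.18 between the 2 ZT14 groups.

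Across the 6 undisturbed group means from ZT10 to ZT20, the named genes outside the clock lists most like tim, among those with a range of at least 0.5 log2 units, were Dscam2 (Pearson's r = 0.928), ana (0.902), bnb (0.88), raskol (0.869) and nej (0.864). These correlations describe 6 means from 2 experiments and carry no test. Without the ZT20 array with conflicting labels they were 0.927, 0.896, 0.877, 0.875 and 0.79, an alternative chosen after seeing the data. From ZT10 to ZT14 itself ana was higher in every wake array, at 7.21, 7.26 and 7.38 against 7.04, 6.91 and 7.0 (difference 0.30; adjusted p = 0.177). Dscam2, a cell adhesion molecule of neurons, differed by 0.53 with overlap (adjusted p = 0.382), and its other probe sets by 0.14, 0.15 and 0.00. The others overlapped between the hours too, with bnb at 0.23, raskol at 0.11 and nej at 0.11.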

How the data were processed

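The authors normalised the arrays with the robust multi-array average (RMA), per the series' design text, and deposited log2 expression values, 1 per probe set. Per the submitters' processing notes the affy package was used. Its version, and whether both experiments were normalised in 1 run, were not given in the sources used here. RMA evens out array distributions and can hide a shift common to most transcripts. Chip lot and scan order came from the deposited scanner settings.

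Of 14010 probe sets, 44 controls were left out. The platform annotation gives 12443 probe sets 1 symbol, 327 several and 1196 none; symbols were updated through the RefSeq table of Release 6 plus ISO1 MT (12394 matched). Probe sets without a single symbol are not named, and some well-known genes are therefore not analysed here.

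Differences were fitted with limma 3.58.1 in R 4.3.3 (lmFit, eBayes) on the 9 arrays of the experiment, a mean for each group, with Benjamini-Hochberg adjustment across the 13966 probe sets tested (threshold 0.05). Comparisons with the other experiment used all 30 arrays. The 3 arrays of a group are biological replicates by the submitters' account, each from its own pool, and their number limits the precision. The fit was tested on simulated data. A gene enters a list with its brightest probe set. The comparison, the 37 lists and the naming rule were chosen with earlier results of these data known. The rule named the up to 12 largest rises and falls past the threshold without overlap, or the 5 smallest p-values where fewer than 5 passed, every core clock gene, up to 4 called members or 1 leading member of each other list, up to 5 calls of each further test and the 5 genes most like tim. Groups came from the sample titles. Same-numbered wake and ZT10 arrays correlated at -0.26, -0.184 and 0.0302 in their deviations. Differently numbered arrays were not set beside them, so whether the numbers pair arrays was not settled. The main fit did not pair arrays.

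Alternatives were fits of 6 or 30 arrays, a replicate block, renewed quantile normalisation, median centring, cyclic loess, the brighter 50% of probe sets, trended and robust variance, array weights, 1 probe set per gene, a threshold of 0.10, an actin control covariate and the omission of each array.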

Additional observations from a re-analysis of the deposited data

Results flagged for a closer look

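The same contrast, later minus earlier hour, differed between the last 4 h of the active period and the first 4 h of sleep by a test of the difference itself (limma, all 30 arrays), which is what set these results apart. In that test 2 probe sets passed the adjusted threshold, Ugt35B1 with a difference of changes of -1.69 (adjusted p = 0.000141) and CG10513 with -1.65 (adjusted p = 0.000141). All 3 wake arrays of both genes lay below all 3 ZT10 arrays, while sleeping and start arrays differed by 0.14 and 0.10 on average. The intervals differ in hour, lighting, sleep and experiment, which cannot be told apart. Groups of 3 arrays are too small for the check of single outlying samples.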

How the results depend on the processing

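The count of 9 (all lower) stayed within 1.5 times under the fits of 6 or 30 arrays, renewed quantile normalisation, cyclic loess and array weights, but the fit of 30 arrays still called 5 of the 9 genes and each of the others 7: CAH7 and Nplp3 were lost under both scalings, Pdh (adjusted p = 0.0544) and Nplp3 (0.0544) with array weights, Miox (0.0868) and Nplp3 (0.0513) with 6 arrays. It was 14 with median centring, all 14 lower, 5 in the brighter 50% of probe sets (5 lower), 14 with trended and robust variance, 16 with 1 probe set per gene (15 lower), 19 at a threshold of 0.10 (17 lower) and 36 with the actin covariate (32 lower). Higher probe sets numbered 1 with all 30 arrays, renewed quantile normalisation, cyclic loess, trended and robust variance or 1 probe set per gene, 2 at a threshold of 0.10 and 4 with the actin covariate. Leaving out 1 array gave 3 to 10 calls, 3 to 10 of them lower and 0 to 2 higher. The replicate block gave 10 calls and kept 8 of the 9; Miox was lost (adjusted p = 0.0564). The difference from the first 4 h of sleep had 2 calls, 1 in the brighter 50% and 2 to 3 with 1 array left out. Ugt35B1, CG10513 and e kept their calls in every alternative in which they were fitted. For all named genes, 1134 alternative values kept direction and call, 27 gained and 48 lost the call, and 2 reversed: raskol at -0.0172 without wake replicate 1 (up to 0.1737 with other arrays left out) and Pdp1 at 0.00787 after renewed quantile normalisation. Of the list medians 724 stayed within the spread and 53 moved. The causes were not tested, except that the brighter 50% tests fewer probe sets. A scan-day block was not possible with 1 day, and a chip-lot block equals leaving out wake replicate 1, the only array of its lot. Dim probe sets such as Clk are compressed by the normalisation.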
